A study of Rattus norvegicus with 10 samples.

Results

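The interferon stimulated genes Isg15, Irf7, Mx1, Mx2, Usp18, Rsad2, Oas1a, Ifit2 and Ifit3 were followed over every array of an expression study of cultured rat heart muscle cells. Every probe set that the platform annotation assigns to one of these 9 symbols was taken, which gave 11 of the 31099 probe sets in the table. Mx2 and Ifit2 had 2 probe sets each and the other genes 1. The filter on low values, which left out the lowest 25% of probe sets by mean log2 level (below 5.09), was passed by 9 of the 11. The Rsad2 probe set (mean log2 level 4.97) and the Mx2 probe set 1387283_at (5.09, just under the limit) did not pass, and their tests come from a fit without that filter. Counts of tested members are counts of the 9 probe sets that passed. These stand for 8 genes, with Ifit2 counted by both of its probe sets and Rsad2 left out.

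The cells were ventricular cardiomyocytes isolated from Lewis rats aged 0 to 3 days and kept as primary cultures, and total RNA was hybridised to Affymetrix arrays. After a recovery period the cultures spent 3 days without electric pulses (nonpulsed, 3 arrays) or with pulses of 1 Hz and 2 V/cm (pulsed, 4 arrays). Others spent the 3 days with these pulses plus 10 µmol/L blebbistatin, an inhibitor of myosin that stops contraction (blebbistatin, 3 arrays). The arrays came from 4 series of cell isolation and culture. All 3 groups were present in series 2 and 3, while series 1 lacked blebbistatin and series 4 lacked the nonpulsed group. Each array carried RNA mixed in equal parts from duplicate experiments, so p-values measure the spread that remains between these pooled samples once culture series and treatment are in the model, and 10 arrays limit the precision of every value. The design text counts 3 arrays per treatment, whereas the labels give 4 pulsed arrays, and all were used.

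All 12 cardiomyocyte markers were measured, with a summed linear signal of 68593 to 107489 per array, and none lay at the lowest level on all arrays. Markers of other heart cells were present too: the 12 fibroblast markers summed to 40086 to 72510, the 9 endothelial markers to 1249 to 2238 and the 17 macrophage and leukocyte markers to 2021 to 7638. In such bulk RNA, fewer cells of a type and less RNA per cell cannot be told apart. The log2 difference between the 3′ and 5′ control probe sets was 0.45 to 0.77 for beta-actin and 0.06 to 0.23 for GAPDH over the 10 arrays.

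Interferons are secreted proteins that cells release on sensing viral or displaced nucleic acid. Type I interferons bind a receptor made of IFNAR1 and IFNAR2, and the kinases JAK1 and TYK2 then pass the signal to a transcription factor complex that holds STAT2 and IRF9 and binds interferon stimulated response elements in DNA. The genes so induced include direct antiviral effectors, such as the Mx, Oas, Ifit and Rsad2 products, and regulators of the response itself, such as Irf7, which raises interferon output, and Usp18, which dampens receptor signalling. Heart muscle cells and the fibroblasts, endothelial cells and macrophages around them can all mount this response.

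The response element is the DNA sequence that these genes are known to share, so the RefSeq promoters of the members (assembly GRCr8, 250 bases before to 50 after the start) were searched for its core, GAAANNGAAA, on both strands. The promoter table held 5 of the 9 genes (Irf7, Mx1, Rsad2, Oas1a and Ifit3), and the core was found in 4 of them, against 3.92% of all 33469 promoters of that length. Of the 56 promoters of other interferon stimulated genes in the table, 32 held it (57.1%). The window of Mx1 did not hold these letters. The stretches below are 30 bases each in the direction of the gene, with the matched bases in capitals.
Irf7, chr1:205800073-205800102, minus strand: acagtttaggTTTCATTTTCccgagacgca
Rsad2, chr6:48788248-48788277, minus strand: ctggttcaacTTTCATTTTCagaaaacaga
Oas1a, chr12:41330418-41330447, plus strand: ctctcggGAAATGGAAACTGAAAatcttgt
Ifit3, chr1:241527272-241527301, plus strand: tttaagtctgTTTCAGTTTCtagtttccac
In Irf7, Rsad2 and Ifit3 the core lay on the strand opposite to the gene, and in Oas1a 2 overlapping matches lay on the gene's own strand. The matches ended 60 bases before the start of Irf7, 138 before Rsad2, 26 before Oas1a and 35 before Ifit3. A match describes the sequence and is not evidence of a bound factor.

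Setting blebbistatin against pulsed arrays compares paced cells with and without a drug that stops contraction. Loss of contraction and other effects of the drug cannot be told apart in these groups. Of the 11 probe sets, 7 were higher with blebbistatin in each of the 3 series that held both groups, namely those of Isg15, Irf7, Usp18, Rsad2, Mx1 and Ifit3 and 1387283_at of Mx2. Both Ifit2 probe sets were lower in each of these series, and Oas1a and 1369202_at of Mx2 were mixed. Among the 9 tested members 5 were higher and 2 lower in every such series. Of all tested probe sets 23.5% were higher and 15.2% lower. None of the 9 tested member probe sets passed the adjusted threshold of 0.05 (limma with Benjamini-Hochberg adjustment over 23281 probe sets), which 0.0129% of all tested probe sets did. At an unadjusted p under 0.05 there were 4 members higher and 1 lower, beside 6.09% and 5.51% of all tested probe sets. The median fitted log2 change was 0.46 over the 9 members and 0.02 over all tested probe sets.

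**Figure D1:**
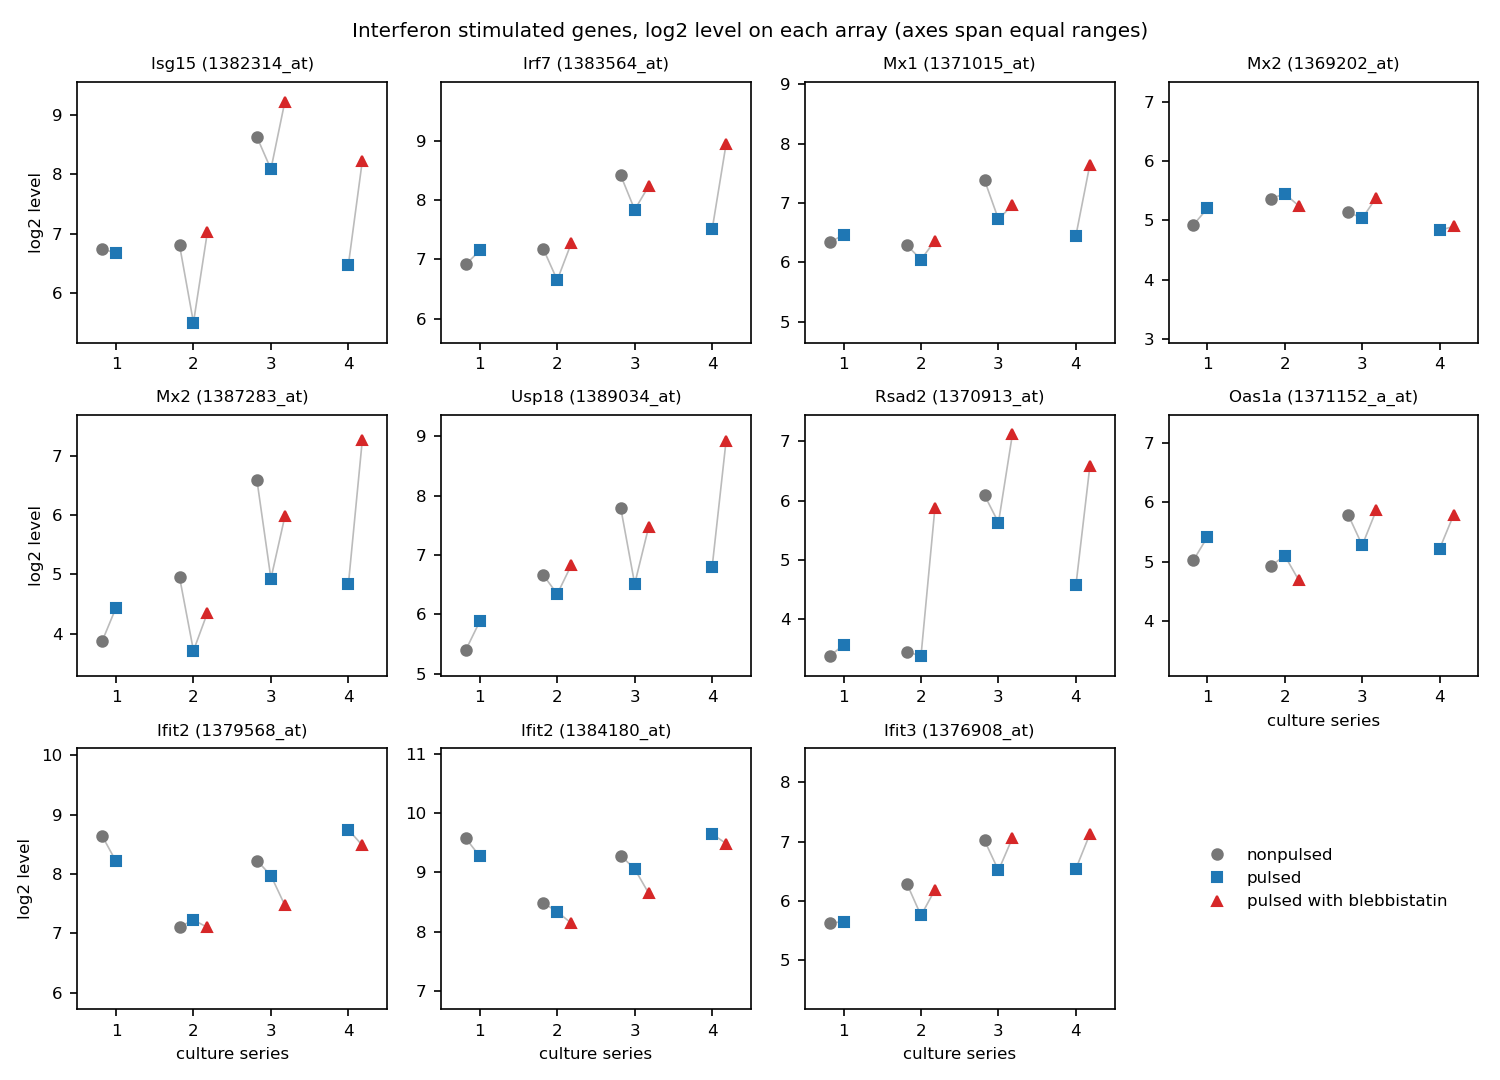
Log2 level (vertical axis) of the 11 probe sets on each of the 10 arrays by culture series (horizontal axis), with grey circles for nonpulsed, blue squares for pulsed and red triangles for blebbistatin arrays, lines joining arrays of 1 series and axes of equal span. The red triangle lies above the blue square of its series in every series for 7 probe sets and below it for both Ifit2 probe sets, and the level shifts between series. Of all tested probe sets 23.5% were higher and 15.2% lower in every series.

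Irf7, the transcription factor that amplifies interferon production, had log2 levels of 7.15, 6.65, 7.84 and 7.50 on the pulsed arrays of series 1 to 4 and of 7.27, 8.23 and 8.94 on the blebbistatin arrays of series 2 to 4. The blebbistatin array was the higher one within each series, while the groups overlapped across series. Its fitted log2 change was 0.71 (SE 0.24, limma adjusted p = 0.353).

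Isg15 encodes a ubiquitin-like protein that is attached to other proteins and also secreted. Its log2 level was 6.68, 5.50, 8.09 and 6.48 on the pulsed arrays of series 1 to 4, and 7.03, 9.23 and 8.23 on the blebbistatin arrays of series 2 to 4. With blebbistatin it was 2.88, 2.2 and 3.37 times as high as on the pulsed array of the same series. The groups overlapped, since the pulsed array of series 3 lay above the blebbistatin array of series 2. The fitted log2 change was 1.37 (SE 0.22, limma adjusted p = 0.123), the largest among the 9 tested members. Without series 1, or without either of its arrays, the fitted change was 1.47 and passed (limma adjusted p = 0.045). For this comparison these settings amount to the same fit, because the series term absorbs a lone array. Over all alternatives the adjusted p ranged from 0.045 to 0.696.

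Usp18 encodes the protease that removes ISG15 from proteins and holds the type I receptor in check. Its log2 level was 5.88, 6.34, 6.51 and 6.80 on the pulsed arrays and 6.83, 7.47 and 8.93 on the blebbistatin arrays, in the order of the series. Every blebbistatin array lay above every pulsed array, although the lowest of the first exceeded the highest of the second by little. The differences were 0.48, 0.96 and 2.13 in series 2, 3 and 4. The fitted log2 change was 1.02 (SE 0.39, limma adjusted p = 0.386).

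Rsad2, whose product viperin makes a nucleotide that ends viral RNA chains, had the largest fitted change of all 11 probe sets. Its log2 level was 3.57, 3.39, 5.63 and 4.57 on the pulsed arrays and 5.88, 7.12 and 6.58 on the blebbistatin arrays. Here too the groups did not overlap, as for Usp18 alone among the other probe sets; over all 31042 probe sets, 5.33% had every blebbistatin array above every pulsed one. The pulsed array of series 2 lay at the lowest level that the table holds, so the difference of 2.50 in that series can be understated, and series 3 and 4 gave 1.49 and 2.01. In the fit without the low filter the log2 change was 1.95 (SE 0.25, limma adjusted p = 0.190). With single arrays left out of that fit it stayed between 1.63 and 2.29, with adjusted p from 0.186 to 0.647; these refits were chosen after the data were seen.

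The Mx genes encode dynamin-like GTPases that interfere with viral replication. Mx1 had log2 levels of 6.47, 6.05, 6.73 and 6.45 on the pulsed arrays and 6.36, 6.97 and 7.65 on the blebbistatin arrays, and the within-series differences were 0.32, 0.24 and 1.20. The Mx2 probe set 1387283_at had levels of 4.44, 3.71, 4.93 and 4.83 against 4.35, 5.98 and 7.27, with differences of 0.64, 1.05 and 2.43. Both sets of arrays overlapped between the groups. The fitted log2 changes were 0.50 (SE 0.23, limma adjusted p = 0.454) for Mx1 and 1.11 (SE 0.52, limma adjusted p = 0.510, without the low filter) for 1387283_at. The other Mx2 probe set, 1369202_at, spanned only 4.83 to 5.45 over all 10 arrays and had a fitted change of 0.04 (SE 0.13). The 2 Mx2 probe sets disagreed, with a Pearson r of -0.23 over the arrays, so Mx2 has no single reading here.

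Oas1a encodes a synthetase whose product activates RNase L. Its log2 level on the pulsed arrays was 5.42, 5.10, 5.28 and 5.22, and on the blebbistatin arrays 4.69, 5.87 and 5.79. The blebbistatin array of series 2 was the lowest of all 10 for this gene and that of series 3 the highest. The fitted log2 change was 0.17 (SE 0.22, limma adjusted p = 0.795).

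Ifit2 and Ifit3 encode related proteins that bind RNA and join in complexes, and their probe sets had changes of opposite sign. Ifit3 had log2 levels of 5.65, 5.75, 6.51 and 6.54 on the pulsed arrays and 6.19, 7.06 and 7.13 on the blebbistatin arrays, and its differences of 0.43, 0.55 and 0.58 were close to one another. The Ifit2 probe set 1384180_at had levels of 9.27, 8.34, 9.06 and 9.65 on the pulsed arrays against 8.15, 8.65 and 9.49 with blebbistatin, with differences of -0.19, -0.41 and -0.16. The second Ifit2 probe set, 1379568_at, gave 8.21, 7.22, 7.97 and 8.75 against 7.10, 7.47 and 8.48. In limma the fitted log2 change was 0.46 for Ifit3 (SE 0.13, adjusted p = 0.309), -0.24 for 1384180_at (SE 0.10, adjusted p = 0.405) and -0.26 for 1379568_at (SE 0.15, adjusted p = 0.551). Over the tested probe sets, 23.5% were higher and 15.2% lower in every series, beside 5 and 2 of the 9 tested members.

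**Figure D2:**
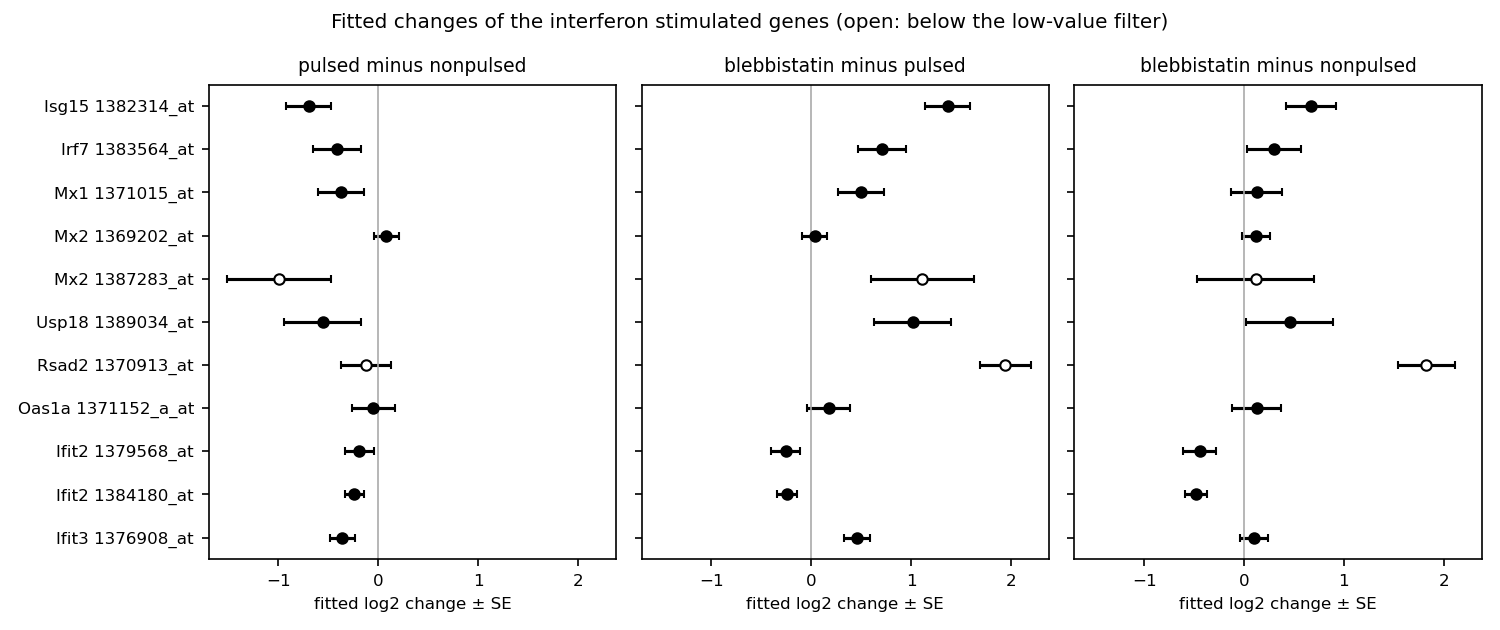
Fitted log2 change with its SE (horizontal axis) of the 11 probe sets (vertical axis) in the 3 treatment comparisons, with open points for the 2 probe sets fitted without the low filter. With blebbistatin against pulsed, Rsad2 (1.95) and Isg15 (1.37) lie farthest to the right and both Ifit2 probe sets (-0.24 and -0.26) to the left, and no tested member passed the adjusted threshold in any panel.

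The comparison of pulsed with nonpulsed cultures asks what pacing alone does. None of the 9 tested members passed the adjusted threshold, and neither did any of the 23281 probe sets (0%, limma). At an unadjusted p under 0.05, 3 members were lower and 0 higher, where 1.36% of all tested probe sets were lower and 7.71% higher. The median fitted log2 change was -0.36 over the 9 members and 0.04 over all tested probe sets. These values share the pulsed arrays with the blebbistatin comparison above, so the 2 sets of changes are not independent.

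The 3 members with an unadjusted p under 0.05 were Isg15, Ifit3 and the Ifit2 probe set 1384180_at. Isg15 stood at 6.74, 6.81 and 8.63 on the nonpulsed arrays of series 1 to 3 and was lower on the pulsed array in all 3, with differences of -0.06, -1.30 and -0.54 and a fitted log2 change of -0.70 (SE 0.22, limma adjusted p = 0.485). Ifit3 stood at 5.63, 6.28 and 7.02 without pulses, and its fitted change was -0.36 (SE 0.13, limma adjusted p = 0.494). The Ifit2 probe set 1384180_at stood at 9.57, 8.49 and 9.28 without pulses and was lower on the pulsed array of each series, with a fitted change of -0.24 (SE 0.10, limma adjusted p = 0.533). Isg15 and this Ifit2 probe set were the only 2 of the 11 that were lower in every series, while 0 were higher in every series; 10.0% and 24.1% of all tested probe sets were.

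The direction was not the same in every series. Irf7, Mx1, Usp18 and Rsad2 and 1387283_at of Mx2 were higher on the pulsed than on the nonpulsed array of series 1, with differences of 0.24, 0.13, 0.48, 0.19 and 0.57. In series 2 and 3 the same probe sets were lower on the pulsed array, with differences in series 3 of -0.58 for Irf7, -0.66 for Mx1, -1.28 for Usp18, -0.46 for Rsad2 and -1.65 for 1387283_at. The nonpulsed array of series 1 and the pulsed array of series 2 lay at the lowest level for Rsad2. Its direction in series 1 and 2 is therefore uncertain. Fitted over all series, the log2 changes of Irf7, Mx1 and Usp18 were -0.41 (SE 0.24), -0.37 (SE 0.23) and -0.56 (SE 0.39). Within a series no spread between like arrays is available, so the difference between series 1 and 3 was not tested.

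In series 2 and 3, which held all 3 groups, the pulsed array was the lowest of the 3 for 7 of the 11 probe sets in both series. They were those of Isg15, Irf7, Mx1, Usp18, Rsad2 and Ifit3 and 1387283_at of Mx2. For Rsad2 in series 2 the pulsed array (3.39) lay at the lowest level and the nonpulsed array (3.45) close to it. The order of these Rsad2 values is therefore uncertain. Among all 31042 probe sets 7.97% showed this order, and among the 23281 tested ones 7.7% did, beside 5 of the 9 tested members.

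Blebbistatin and nonpulsed cultures differed in both pacing and drug, and most members had small changes between them. None of the 9 passed the adjusted threshold, which 0.472% of all tested probe sets did, and 1 was higher and 2 lower at an unadjusted p under 0.05, beside 15.5% and 6.89% of all. Isg15 was higher by 0.22 in series 2 and 0.60 in series 3, with a fitted log2 change of 0.67 (SE 0.25, limma adjusted p = 0.180). Rsad2 stood at 3.38, 3.45 and 6.09 on the nonpulsed arrays, the first of these at the lowest level of the table, and was higher with blebbistatin by 2.44 and 1.03, with a fitted change of 1.82 (SE 0.28, limma adjusted p = 0.0938, without the low filter). Both Ifit2 probe sets were lower, with fitted changes of -0.48 (SE 0.11, limma adjusted p = 0.0860) for 1384180_at and -0.44 (SE 0.17, limma adjusted p = 0.182) for 1379568_at. For Irf7, Mx1, Usp18, Oas1a and Ifit3 the fitted changes of 0.10 to 0.46 changed sign when only series 2 and 3 and these 2 groups were fitted.

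Differences between the culture series passed the test for some members. The moderated F-test of the series terms had treatment in the model. It called 4 of the 9 tested member probe sets, of 3 genes (limma, adjusted p under 0.05), beside 8.09% of all tested probe sets. They were those of Isg15 (limma adjusted p = 0.00989) and Ifit3 (0.0135) and both of Ifit2 (0.00453 and 0.0105). Irf7 lay just outside (adjusted p = 0.0553), and in the fit without the low filter Rsad2 passed (adjusted p = 0.0300, but 0.0616 after quantile normalization). The count fell to 2 without the pulsed array of series 2 or without the whole of series 3, and to 0 without the whole of series 2. The Rsad2 call was lost on leaving out any array other than the blebbistatin arrays of series 2 and 3. Series and the day on which arrays were processed cannot be told apart.

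**Figure D3:**
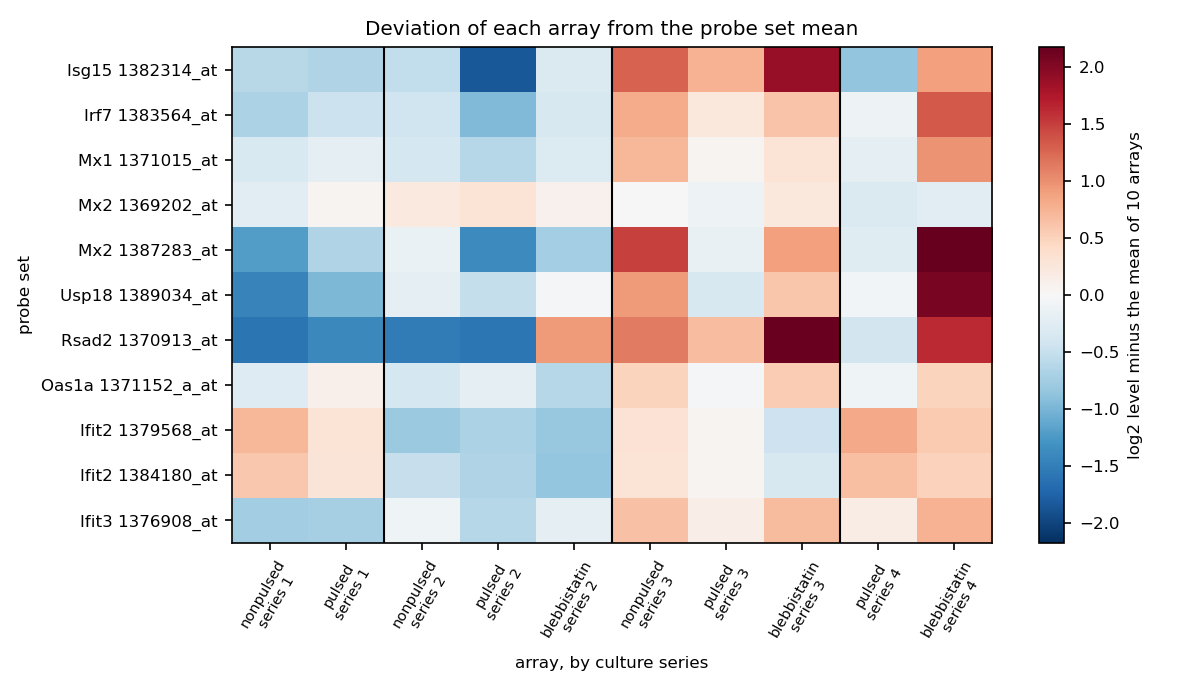
Log2 level minus the mean over 10 arrays (colour, red higher and blue lower) of the 11 probe sets (rows) on each array (columns, grouped by culture series with black lines). Isg15, Irf7, Usp18, Rsad2 and 1387283_at of Mx2 are blue in series 1 and on the pulsed array of series 2 and mostly red in series 3, whereas both Ifit2 probe sets are blue in series 2 and red in series 1 and 4.

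In series 2, 3 member probe sets, of 2 genes, fell against the mean of the other 3 series. Isg15 had a log2 change of -1.24 (SE 0.20, limma adjusted p = 0.0125). The Ifit2 probe sets had changes of -1.16 (SE 0.13, limma adjusted p = 0.00463) and -1.01 (SE 0.09, limma adjusted p = 0.00181). Of all tested probe sets 7% were called lower in this contrast. Of the 9 members 8 had a negative change, as did 56.1% of all, with a median of -0.64 against -0.03 over all, and the exception was 1369202_at of Mx2 (0.32). Both Ifit2 probe sets passed under every alternative run for this contrast, with a highest adjusted p of 0.042 and 0.025, and for Isg15 the adjusted p was 0.0954 without the pulsed array of series 2, 0.0607 without its blebbistatin array and 0.168 without treatment terms. The count was 5 without the nonpulsed array of series 1, when Irf7 and Ifit3 passed as well, or without the pulsed array of series 4, when Irf7 and Mx1 did.

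In series 3, Isg15 rose by a log2 change of 1.70 (SE 0.20, limma adjusted p = 0.0205) against the other series, the only member called where 0.588% of all tested probe sets were. Its mean log2 level was 8.65 there, against 6.71, 6.45 and 7.35 in series 1, 2 and 4. Ifit3 had a change of 0.64 (SE 0.11, limma adjusted p = 0.0646), and Rsad2, without the low filter, 1.73 (SE 0.22, limma adjusted p = 0.0603). The Isg15 call was lost, with a count of 0, without the pulsed or the blebbistatin array of series 2 or any of the 3 arrays of series 3, and the count was 2 without the pulsed array of series 1, when Ifit3 passed too.

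In series 1, Ifit3 fell by a log2 change of -0.87 (SE 0.14, limma adjusted p = 0.0338), the only member called, beside 1.44% of all tested probe sets. In series 4 both Ifit2 probe sets rose, by 0.94 (SE 0.16, limma adjusted p = 0.0457) and 0.81 (SE 0.10, limma adjusted p = 0.0367), beside 1.19% of all. Neither the series 1 nor the series 4 contrast was steady. The series 1 count fell to 0 on leaving out any array other than the pulsed array of series 1 and the blebbistatin array of series 4. In series 4 both Ifit2 calls were lost on leaving out any array other than the nonpulsed one of series 1. Ifit3 passed there instead without the pulsed array of series 1 (limma adjusted p = 0.0461).

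Ifit2 stood apart from the other members in its pattern over the arrays. The 8 probe sets of Isg15, Irf7, Mx1, Usp18, Rsad2, Oas1a and Ifit3 and 1387283_at of Mx2 correlated with one another at a Pearson r of 0.60 to 0.97 over the 10 arrays (median 0.83 of 28 pairs). The Ifit2 probe sets correlated with these 8 at -0.01 to 0.43 and with each other at 0.99. The Mx2 probe set 1369202_at correlated with the Ifit2 ones at -0.89 and -0.86 and with the 8 at -0.35 to -0.09. The arrays share culture series and treatment, so these values describe this set of arrays.

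Outside the member list, the probe sets most like the members were found by the Pearson correlation of their log2 level with the mean standardised level of the 9 tested member probe sets over the 10 arrays. The 10 highest were Iah1 (0.95), Luc7l3 (0.93), Ifi44 (0.93), Stat2 (0.92), Psmg4 (0.92), Irgm2 (0.92), Atp6v0b (0.91), Gpm6a (0.91), Rbm45 (0.91) and Prxl2a (0.91). Among these 10, Ifi44, Stat2 and Irgm2 are known interferon response genes. The 10 were picked as the highest of many ranked probe sets, and no r was tested. The mean standardised level was highest on the blebbistatin array of series 4 (1.08) and lowest on the pulsed array of series 2 (-0.79).

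The rest of the pathway was read from lists chosen with earlier results of these data known. Among ligands and receptors, 9 of 13 genes were measured and 6 tested, and 0 passed in any treatment comparison. Ifnb1, which encodes interferon beta, and Ifnk lay at the lowest level of the table on all 10 arrays. Ifng, encoding interferon gamma, lay between 4.45 and 5.73 and was too dim to be tested. With blebbistatin against pulsed, the largest change was that of Ifnlr1, which encodes a chain of the type III interferon receptor (-0.32, SE 0.13, limma adjusted p = 0.407). It was the only gene of the list with an unadjusted p under 0.05 in that comparison, beside 5.51% of all tested probe sets lower and 6.09% higher. The type I receptor genes Ifnar1 and Ifnar2 had fitted log2 changes of 0.04 (SE 0.10, limma adjusted p = 0.896) and 0.11 (SE 0.10, limma adjusted p = 0.709) there. The largest change was 0.16 for Ifnlr1 with pulsed against nonpulsed (SE 0.13, limma adjusted p = 0.719) and 0.23 for Ifnar2 with blebbistatin against nonpulsed (SE 0.12, limma adjusted p = 0.276).

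Of the signal transduction genes 16 of 17 were measured and 15 tested. The nucleic acid sensor list held 21 symbols, some of them 2 names of the same gene, such as Tmem173 and Sting1. Of its genes 13 were measured and 11 tested. Of either list 0 passed in the 3 treatment comparisons. The largest changes with blebbistatin against pulsed were those of Socs3, an inhibitor of cytokine receptor signalling (-0.52, SE 0.26, limma adjusted p = 0.486), and of Eif2ak2, the RNA-activated kinase PKR (0.42, SE 0.14, limma adjusted p = 0.361). With blebbistatin against nonpulsed, the RNA-editing enzyme gene Adar had a change of 0.61 (SE 0.12, limma adjusted p = 0.0770) and Socs3 one of -0.50 (SE 0.29, limma adjusted p = 0.340). With pulsed against nonpulsed, Dhx58, a regulator of the RNA sensors, had one of -0.55 (SE 0.19, limma adjusted p = 0.494) and Irf9 one of -0.26 (SE 0.20, limma adjusted p = 0.707).

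Of 63 other interferon stimulated genes, 43 were measured and 38 tested. With blebbistatin against pulsed 32 of the 38 had a positive change, where 55.5% of all tested probe sets did, and the list's median was 0.12. The series were not alike. The blebbistatin array was the higher one for 26, 20 and 32 of the 38 in series 2, 3 and 4. The median differences were 0.10, 0.02 and 0.52. None passed the adjusted threshold, which 0.0129% of all tested probe sets did. At an unadjusted p under 0.05, 7 of the list were higher and 0 lower, beside 6.09% and 5.51% of all tested probe sets. The largest change was that of Oasl, a relative of the Oas synthetases. Its log2 level was 6.13, 5.42, 6.81 and 6.82 on the pulsed arrays and 6.76, 8.10 and 7.60 on the blebbistatin arrays. The blebbistatin array was the higher one in each series, and the fitted change was 1.1 (SE 0.13, limma adjusted p = 0.0734). Without series 1 or either of its arrays, which again amounts to the same fit, the limma adjusted p was 0.047. Oasl also had the largest change of the list with blebbistatin against nonpulsed (0.85, SE 0.15, limma adjusted p = 0.0630). With pulsed against nonpulsed 29 of the 38 had a negative change, where 38.9% of all tested probe sets did, led by Herc6, a ligase of the ISG15 pathway (-0.65, SE 0.15, limma adjusted p = 0.480). Here the direction differed by series. The pulsed array was the higher one for 22, 8 and 9 of the 38 in series 1, 2 and 3. The median differences were 0.07, -0.20 and -0.16.

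The series effect reached this wider set too. In series 2, 22 of the 38 other interferon stimulated genes fell and 1 (Isg20, named after its value was seen) rose, with a list median of -0.60, where 7% of all tested probe sets were called lower. The 3 largest falls were those of Slfn5, a nuclear Schlafen protein gene (-1.57, SE 0.15, limma adjusted p = 0.00255), Ifi27l2b (-1.18, SE 0.17, limma adjusted p = 0.00918) and Igtp, an interferon inducible GTPase gene (-1.17, SE 0.15, limma adjusted p = 0.00712). The count of falls was 9 without the nonpulsed or the blebbistatin array of series 2, 4 without its pulsed array and 13 without the nonpulsed array of series 3. Without the pulsed array of series 2, Ifi27l2b and Igtp no longer passed, while Slfn5 passed with every single array left out. In the other lists fewer genes fell in series 2: 2 of 6 ligands and receptors, 2 of 15 signal transduction genes, 3 of 18 presentation and chemokine genes and 0 of 11 sensors. Stat2 (-0.57) and Irf9 (-0.74), both parts of the factor that binds the response element, and the receptor genes Ifnar1 (-0.40) and Ifngr1 (-0.33) were the genes called in the first 2 lists (limma adjusted p = 0.0239, 0.0416, 0.0305 and 0.0418). The presentation genes were Tap2, Psmb9 and Psmb8, which prepare peptides for presentation (-0.60, -0.53 and -0.48). Each of these 7 calls was lost on leaving out single arrays, 6 to 10 of the 10.

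**Figure D4:**
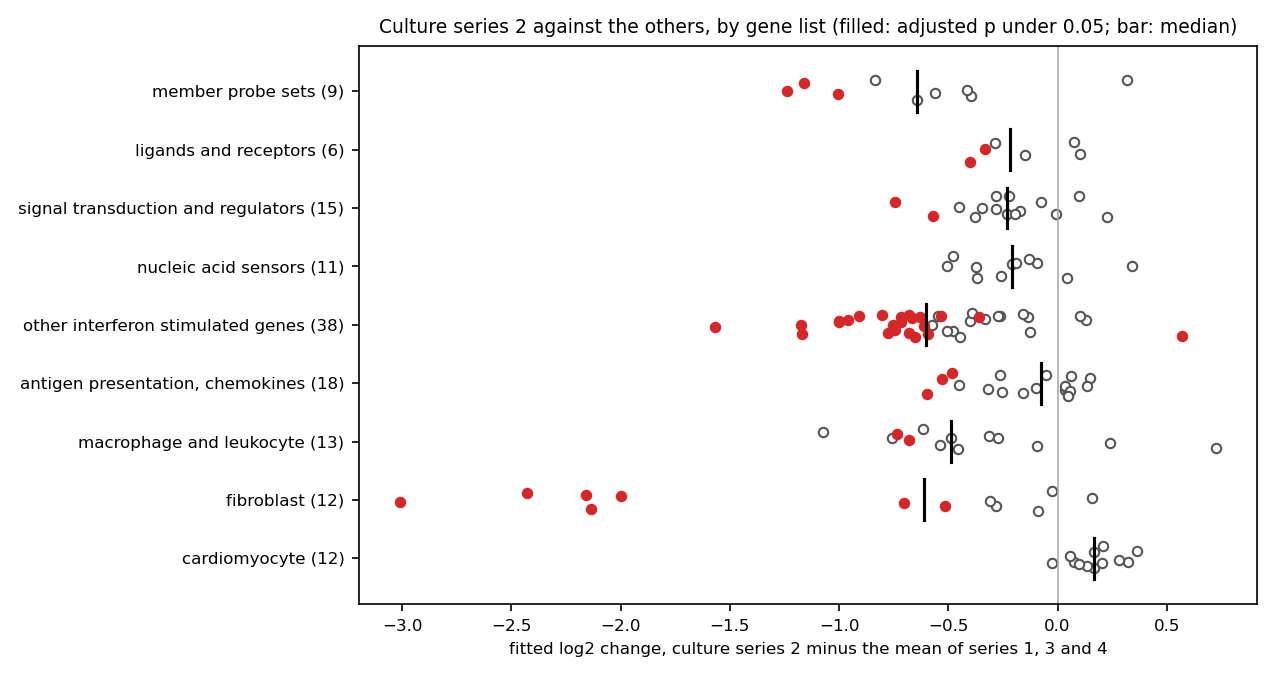
Fitted log2 change of culture series 2 against the mean of the other 3 series (horizontal axis) for the 9 tested member probe sets and every tested gene of each other list (vertical axis, number tested in brackets), with red points for an adjusted p under 0.05 and black bars for list medians. The medians are -0.64 for the member probe sets (-0.60 over the 8 tested member genes), -0.60 for other interferon stimulated genes, -0.61 for fibroblast markers and 0.17 for cardiomyocyte markers.

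Markers of other cell types moved between the same series. In series 2, 7 of 12 fibroblast markers fell (median -0.61), 4 of 7 tested endothelial markers fell (median -0.43) and 2 of 13 tested macrophage and leukocyte markers fell (median -0.49), while 0 of 12 cardiomyocyte markers passed, 11 of them with a positive change (median 0.17). Of all tested probe sets 7% were called lower in series 2 and 56.1% had a negative change. In series 3, where Isg15 was high, 5 of 13 macrophage and leukocyte markers fell (median -1.05) and their summed linear signal was 2021 to 2285, below the 5942 to 7638 of series 1. Of all tested probe sets 0.588% were called in series 3, in either direction. With blebbistatin against pulsed, 11 of 13 macrophage and leukocyte markers and 11 of 12 fibroblast markers had a negative change (medians -0.22 and -0.27), as had 10 of 11 smooth muscle and pericyte markers (median -0.34), 0 of them passed, and the cardiomyocyte median was 0.01. The blebbistatin array was the higher one for 1, 8 and 1 of the 13 macrophage and leukocyte markers in series 2, 3 and 4. Their median differences were -0.26, 0.03 and -0.63. For the 12 fibroblast markers it was the higher one for 3, 2 and 2. Of all tested probe sets 55.5% had a positive change in this comparison, with a median of 0.02. With pulsed against nonpulsed, the cardiomyocyte median was 0.31 with 0 passing. The part of these markers in the levels of the interferon stimulated genes was not tested.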

How the data were processed

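Total RNA was measured on 10 Affymetrix rat arrays. The authors deposited log2 values, which the submitters' processing notes credit to the PLIER algorithm and to version 1.1 of Affymetrix Expression Console. Settings and log base: not given in the sources used here. A base of 2 was inferred, because the lowest deposited log2 level of each array is then 10.0 to 10.97 on the linear scale. No further scaling was applied. Values at that lowest level have no order, which can make a dim gene's difference too small.

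Groups came from the labels. The labels hold a date rather than a series number, so arrays that share a date were taken as one culture series, numbered by date. Arrays of one series tended to deviate together from their group means (Pearson r of 0.353 to 0.633 in 8 pairs, median 0.424). In 25 pairs of different series and group the r was -0.578 to 0.498 (median -0.256), so the ranges overlapped. Series was therefore taken as a fixed block in limma 3.58.1 (R 4.3.3, with lmFit and eBayes, two-sided). All 10 arrays entered each fit, the 57 control probe sets were left out, each probe set was tested on its own, and Benjamini-Hochberg adjustment ran over the 23281 probe sets tested, with a threshold of 0.05. Because each fit holds all arrays, fitted changes need not equal the mean of the within-series differences.

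Members and lists were chosen with earlier results of these data known. All members are named; of each other list, the 3 largest changes past the threshold, or the largest where none passed; and the 10 most alike probe sets. Other genes named were picked after their values were seen. Alternatives covered the filter, probe sets, normalization, prior, block, arrays and series left out. The fits were tested on simulated data. Symbols came from the platform annotation, and promoters from RefSeq (GRCr8).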

Additional observations from a re-analysis of the deposited data

How the results depend on the processing

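Over the treatment comparisons, 0 tested members passed under any alternative but one: Isg15 with blebbistatin against pulsed, without series 1 or either of its arrays (count 0 to 1 on leaving out arrays or series). In the culture series test the count was 4, and 0 to 5 on such leaving out. For series 1, 2, 3 and 4 against the others it was 1 (0 to 1), 3 (2 to 5), 1 (0 to 2) and 2 (0 to 3). Without the low filter, and without treatment terms, series 1, 3 and 4 gave 0; quantile normalization gave 2 and 0 for series 3 and 4, median centring 2 and 1, and 1 probe set per gene 1 for series 4. With the lowest 50% left out, series 1 gave 0, because that filter removed Ifit3, its only call. The falls of other interferon stimulated genes in series 2 numbered 22, and 4 to 25 on leaving out arrays.

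Over all probe sets, blebbistatin against pulsed called 3 (0 to 48 on leaving out arrays or series), and 0 without the low filter, 6 with the lowest 50% left out, 10 with a trended prior, 5 with no replicate block, 14 with a random replicate block and 12 with only the 2 groups. Against nonpulsed it called 110 (0 to 69), and 1, 70, 216, 46, 1212 and 2 under the same settings, 63 with 1 probe set per gene and 67 with quantile normalization. Pulsed against nonpulsed called 0 throughout. The culture series test called 1884 (16 to 1854).

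Small changes turned sign. With no replicate block, pulsed against nonpulsed gave -0.013 for 1369202_at of Mx2, 0.0072 for Oas1a and 0.046 for 1379568_at of Ifit2. With only the 2 groups, Oas1a gave 0.018 there, and blebbistatin against nonpulsed gave -0.044 for Irf7, -0.17 for Mx1, -0.078 for Usp18, -0.081 for Oas1a and -0.027 for Ifit3. On leaving out arrays or series, pulsed against nonpulsed ranged from -0.0092 to 0.18 for 1369202_at, -0.25 to 0.14 for Oas1a and -0.30 to 0.19 for Rsad2. Blebbistatin against pulsed ranged from -0.10 to 0.17 for 1369202_at and -0.0060 to 0.46 for Oas1a. Blebbistatin against nonpulsed ranged from -0.076 to 0.49 for Mx1, -0.020 to 0.28 for 1369202_at, -0.0012 to 0.43 for Oas1a, -0.012 to 0.23 for Ifit3 and -0.34 to 0.56 for 1387283_at. The cause was not tested. The scaling of the arrays moved no member's direction. Signal near the lowest level limits Rsad2 and 1387283_at of Mx2, and 10 arrays with 4 residual degrees of freedom limit every test.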

Other observations

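Cd74, the invariant chain that escorts major histocompatibility complex class II molecules, was the one gene of the interferon pathway lists that passed in a treatment comparison. Its log2 level was 3.94, 4.90 and 5.65 on the nonpulsed arrays, 5.88, 5.86, 5.75 and 5.67 on the pulsed arrays and 7.52, 7.58 and 8.64 on the blebbistatin arrays. Every blebbistatin array lay above every pulsed array, as for 5.33% of all 31042 probe sets, while the lowest pulsed and the highest nonpulsed array were nearly level (5.67 and 5.65). With blebbistatin against nonpulsed it rose by a log2 change of 2.80 (SE 0.42, limma adjusted p = 0.0498), the one call among the 18 tested genes of its list. Leaving out any single array ended the call, with changes of 2.48 to 3.31, and over all alternatives the adjusted p ranged from 0.0104 to 0.324. Against pulsed cultures the change was 1.97 (SE 0.38, limma adjusted p = 0.176), and with pulsed against nonpulsed it was 0.83 (SE 0.38, limma adjusted p = 0.561).

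Class II genes known to be induced together with Cd74 did not pass: with blebbistatin against nonpulsed RT1-Da had a change of 0.26 (SE 0.14, limma adjusted p = 0.319), RT1-Ba one of 0.20 (SE 0.12, limma adjusted p = 0.354) and Ciita, the class II transactivator, one of 0.14 (SE 0.15, limma adjusted p = 0.603). Of the macrophage and leukocyte markers, 11 of 13 had a negative change in the same comparison (median -0.28, against 0.07 over all tested probe sets). Within series, 1 of the 13 was higher with blebbistatin in series 2 and 7 were in series 3 (median differences -0.34 and 0.07). Their part in the Cd74 values was not tested.

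Of the 18 tested presentation and chemokine genes, 2 fell in series 1 and 2 others rose in series 4, where 1.44% and 1.19% of all tested probe sets were called; series 1 was not tested against series 4. Cxcl10, a chemokine that attracts T cells, fell in series 1 (-1.30, SE 0.21, limma adjusted p = 0.0367), as did the class I gene RT1-S3 (-0.87, SE 0.14, limma adjusted p = 0.0336). In series 4 Cxcl11, a chemokine of the same receptor, rose (1.14, SE 0.19, limma adjusted p = 0.0461), as did the immunoproteasome gene Psmb8 (1.01, SE 0.14, limma adjusted p = 0.0400) and Slfn5, Slfn2 and Trim34 (1.16, 0.92 and 0.84). Ifitm1, a membrane protein that blocks viral entry, rose in series 1 (0.69, SE 0.11, limma adjusted p = 0.0323) and fell in series 3 (-0.56, SE 0.09, limma adjusted p = 0.0487), where Oasl rose (0.83, SE 0.12, limma adjusted p = 0.0409). Each of the calls named here for series 1, 3 and 4 was lost on leaving out single arrays, 7 to 10 of the 10.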
